A study of Mus musculus with 12 samples.

Results

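The genes examined encode 6 of the STAT transcription factors, *Stat2*, *Stat3*, *Stat4*, *Stat5a*, *Stat5b* and *Stat6*, out of 26182 genes with a curated RefSeq transcript on the mm10 (GRCm38) assembly. They were chosen by name, with earlier results of these data known. A gene was counted as having a BATF peak when the summit of a peak lay in its body or within 50 kb of it. In 4 BATF chromatin immunoprecipitation sequencing (ChIP-seq) libraries 2 such peaks were found, 1 in intron 1 of *Stat5b* and 1 in an intron of *Stat4*, where the average density of peaks over the genome gives 1.65 for the same length of sequence. Both came from the same Th9 library, and *Stat2* and *Stat6* had none.

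The series maps BATF binding by ChIP-seq in cultured mouse Th9 and Th17 cells, the helper T cells named for making IL-9 and IL-17. Naive CD4+ T cells of C57BL6/J mice were activated with antibodies to CD3 and CD28 and collected on day 5 without being activated again. Th9 cultures received IL-4, human IL-2, TGF-β1 and antibody to IFNγ, and Th17 cultures received IL-6, TGF-β1, IL-23, IL-1β and antibodies to IFNγ, IL-4 and IL-2. All cultures shared the stimulation, TGF-β1 and the block of IFNγ, none carried a deletion or transgene according to the labels, and age was not given in the labels. Libraries 1 and 2 are from Th9 cells and libraries 3 and 4 from Th17 cells, and an input and an IgG library accompany each. The labels do not say whether libraries of a cell type came from separate animals or cultures, so the spread between them may be technical. Such cultures hold cells that do and do not make the defining cytokine, and the lists report the population as a whole.

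STAT proteins wait in the cytoplasm and are phosphorylated by JAK kinases that sit on cytokine receptors. They then pair, enter the nucleus and bind the palindrome TTCNNNGAA. STAT2 acts in type I interferon signalling, STAT3 is activated by IL-6 and IL-23 and drives Th17 development, STAT4 is activated by IL-12 and drives Th1 development, STAT5A and STAT5B are activated by IL-2 and related cytokines, and STAT6 is activated by IL-4 and is needed for Th2 and Th9 cells. BATF, an AP-1 factor, binds TGAGTCA together with JUN proteins, and with IRF4 or IRF8 it binds composite AP-1:IRF elements, searched here in the arrangements known as AICE1 (sites apart) and AICE2 (sites adjoining). The question asked of these loci is where BATF binds near the genes for the STAT factors.

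The sequences of both peaks are shown because the *Stat5b* peak holds an AP-1 site and a STAT site and the *Stat4* peak holds neither. They are the plus strand of GRCm38 over the whole peak, with the matched sites in capitals.
Stat5b peak, chr11:100844219-100844387, AP-1 and STAT sites in capitals: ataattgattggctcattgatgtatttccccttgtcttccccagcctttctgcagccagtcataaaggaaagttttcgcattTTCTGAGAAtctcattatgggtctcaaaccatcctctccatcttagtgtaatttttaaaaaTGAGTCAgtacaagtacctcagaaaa
Stat4 peak, chr1:52034274-52034449, a TGANTCA match in capitals: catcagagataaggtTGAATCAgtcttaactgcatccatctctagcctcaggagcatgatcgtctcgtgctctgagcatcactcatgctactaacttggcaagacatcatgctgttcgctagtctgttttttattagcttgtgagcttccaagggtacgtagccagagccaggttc

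Peaks called with input plus IgG as control numbered 1709 and 241 in Th9 libraries 1 and 2 and 4111 and 199 in Th17 libraries 3 and 4. The lists give no read counts, so depth is unknown from them, and a site without a peak is below the threshold of that list and is not shown to be unbound. The marker loci did not separate the libraries by their labels throughout. *Il9*, which encodes the cytokine that defines Th9 cells, had 2 peaks within 50 kb in Th9 library 2 and none in Th9 library 1. A peak between *Il17a* and *Il17f*, which encode the Th17 cytokines, was present in Th17 libraries 3 and 4 and also in Th9 library 1. *Il23r*, a Th17 receptor gene, had a peak in Th9 library 1 alone. Th9 library 1 is the library that holds both peaks near STAT genes, and its part in the results was not tested beyond leaving it out.

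*Stat5b*, which encodes a STAT5 protein that relays IL-2 signals, spans 100780731 to 100850581 of chromosome 11 (minus strand), next to *Stat5a* and *Stat3*. In Th9 library 1 a peak of 169 bp lay in its body with the summit at 100844322. The summit was in intron 1 of the longest curated transcript, NM_001113563.2, which has 19 exons, and 6259 bp downstream of its start site. Relative to the start sites of the other 2 curated transcripts it lay at −21752 and −30952 bp, negative values being upstream. The fold enrichment over the control was 7.32 and the −log10 q was 7.21, which ranked this peak 252 of 1709 in its list by q and 222 by fold enrichment. It was thus among the top 14.7% of the list by q.

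The *Stat5b* peak did not depend on which control was used. Against input alone it was enriched 7.55-fold (−log10 q 7.47, rank 187 of 1517 by q). Against IgG alone the values were lower, with 5.87-fold enrichment (−log10 q 5.25, rank 427 of 1501). The start and end of the peak were identical in the 3 lists, and the summit moved by 11 bp. None of the 9 lists of the other libraries had a peak there.

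Within 100 bp of the summit the *Stat5b* peak carried a single TGAGTCA, the preferred site of BATF with JUN, from 100844362 to 100844368. Its centre was 43 bp from the summit toward the end of the chromosome. A single STAT site, TTCTGAGAA, ran from 100844301 to 100844309 with its centre 17 bp on the other side of the summit. The sites were separated by 52 bases, or 60 bp between centres, and no composite AP-1:IRF site was found. Of the bases of the peak, 23.7% are masked as repeat and 37.9% are G or C.

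Few of the BATF peaks held an AP-1 site together with a STAT site. Of 1709 peaks in Th9 library 1, 254 (14.9%, exact 95% binomial interval 13.2 to 16.6) had TGAGTCA within 100 bp of the summit and 173 (10.1%, 8.73 to 11.7) had TTCNNNGAA. Both were present in 39 peaks (2.28%, 1.63 to 3.11). Among the 257 peaks of that list with a −log10 q at or above that of the *Stat5b* peak, 112 (43.6%) had the AP-1 site, 35 (13.6%) the STAT site and 18 (7.0%) both. In windows of equal size centred 2000 bp to either side of all 5873 merged regions, the shares were 3.42% for AP-1, 7.17% for STAT and 0.247% for both. These intervals cover counting error only.

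The spacing in the *Stat5b* peak was not extreme among the peaks with both sites. The median distance between centres of the closest AP-1 and STAT sites was 52 bp over the 39 peaks of Th9 library 1, with a range of 8 to 156 bp, and 21 of the 39 were closer than in *Stat5b*. The AP-1 site was farther from the summit than is typical. Its 43 bp compares with a median of 27.5 bp over the 254 peaks with an AP-1 site, of which 89 were farther.

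*Stat5a* and *Stat3* shared this single peak and had no other. *Stat5a*, which encodes the other STAT5 protein, starts at 100859351 on the plus strand and ends at 100885169. The summit lay 15029 bp upstream of it, so the peak is upstream of *Stat5a* and inside *Stat5b*, and these genes are transcribed away from each other. *Stat3* occupies 100886806 to 100939540 on the minus strand, and the summit lay 42484 bp beyond its 3′ end and 95218 bp from its start site. Counting 3 genes for this peak is therefore counting the same event, and a window of 10 kb in place of 50 kb leaves *Stat5b* alone of the 3.

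*Stat4*, the longest of the 6 genes with 120042 bp, lies on chromosome 1 from 51987148 to 52107189 on the plus strand. Its peak, also in Th9 library 1, was 176 bp long with the summit at 52034326. The summit was in intron 4 of the 25-exon transcript NM_001308266.1, 47178 bp from its start site, and in intron 3 of the 24-exon transcript NM_011487.5, 26086 bp from its start site. Fold enrichment was 4.98 and −log10 q was 3.15, rank 1085 of 1709 by q and 1266 by fold enrichment, which places it among the weaker peaks of its list.

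The *Stat4* peak was less stable than that of *Stat5b*. Against input alone it was present, enriched 4.68-fold (−log10 q 2.92, rank 1254 of 1517). In the list called against IgG alone it was absent. None of TGAGTCA, TTCNNNGAA and the composite elements occurred within 100 bp of its summit. A looser spelling, TGANTCA, matched at TGAATCA, from 52034289 to 52034295, with the centre 34 bp before the summit, and this spelling was found near 18.0% of the summits in Th9 library 1. None of the sequence of the peak was masked as repeat (0%), and 46.6% of its bases were G or C.

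**Figure D1:**
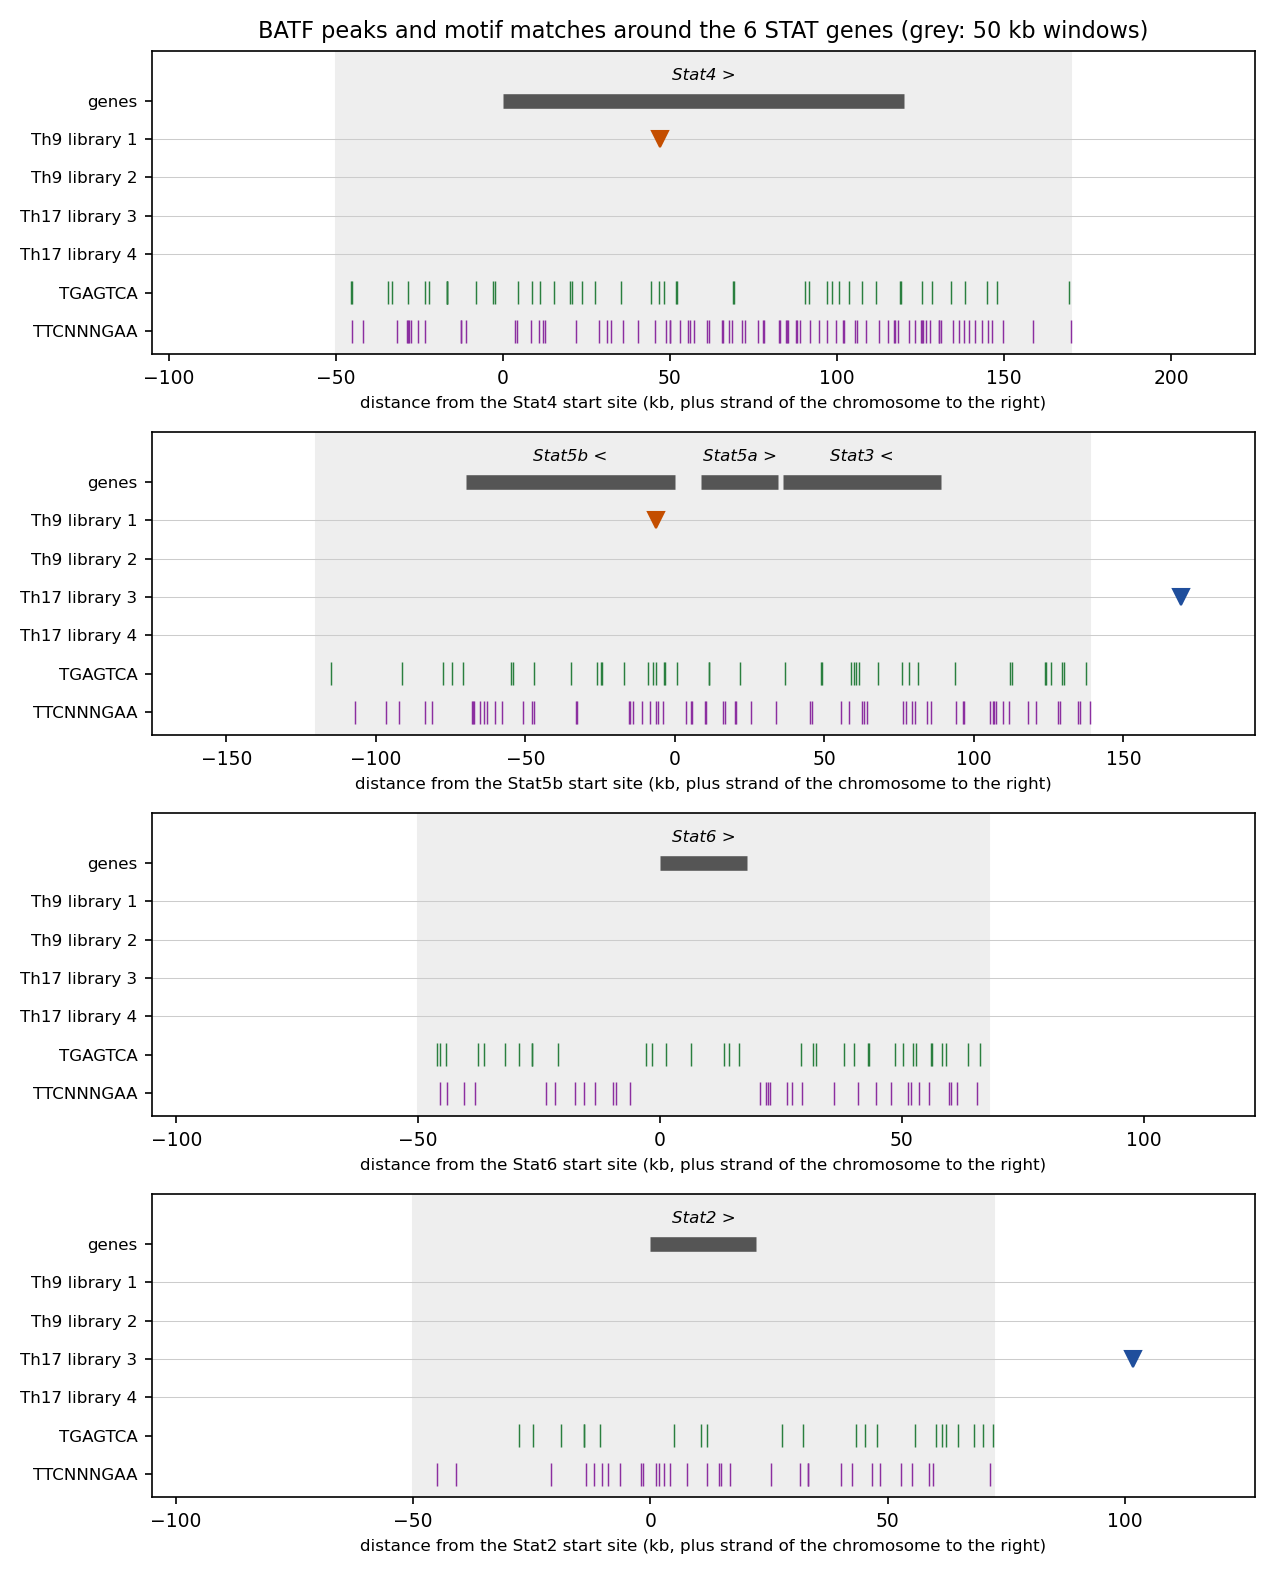
Map of the 4 loci that hold the 6 STAT genes, with distance from a start site in kb on the x axis. Dark bars are the gene bodies with an arrow for the direction of transcription, other genes are not drawn, triangles are BATF summits by library, vertical ticks are TGAGTCA and TTCNNNGAA matches in the 50 kb windows (grey). The 2 triangles of Th9 library 1 lie in *Stat4* and *Stat5b*, and the 2 triangles of Th17 library 3 lie outside the windows.

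*Stat2* and *Stat6* had no peak within 50 kb in any of the 12 lists, and 71.6% of all genes had none in the 4 lists used. *Stat6*, on chromosome 10 from 127642986 to 127660987, had its nearest summits 1620 kb away in Th9 library 1 and 218 kb away in Th17 library 3. In Th9 library 2 and Th17 library 4 the nearest summits were 27100 kb and 38100 kb away. *Stat2*, on the same chromosome from 128270498 to 128292853, had a summit 79.4 kb away in Th17 library 3 and 1510 kb away in Th9 library 1. The values were 27700 kb in Th9 library 2 and 38700 kb in Th17 library 4. Both genes are on the plus strand, and their bodies of 22356 bp (*Stat2*) and 18002 bp (*Stat6*) are the shortest of the 6.

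In Th17 cells 0 of the 6 genes had a peak within 50 kb, against 21.8% of all genes in either Th17 library, and at that share a count of 0 among 6 genes at 4 loci is not far from the background. The peaks just outside the window were both from Th17 library 3. The peak nearest to *Stat2*, of 224 bp with the summit at 128372285, was 79432 bp away between genes, 5.12-fold enriched at a −log10 q of 3.56, rank 2408 of 4111. It was absent from the list called against input alone, 58.0% of its sequence is masked as repeat, and none of the sites searched was within 100 bp of its summit. The peak nearest to *Stat3*, of 223 bp with the summit at 101019784, was 80244 bp away in an intron of *Atp6v0a1*, a proton pump subunit gene. It was enriched 7.34-fold (−log10 q 7.04, rank 727 of 4111) and present in all 3 lists of Th17 library 3. It held TGATTCA, a match to the looser spelling, 58 bp from its summit, and no TGAGTCA or STAT site.

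**Figure D2:**
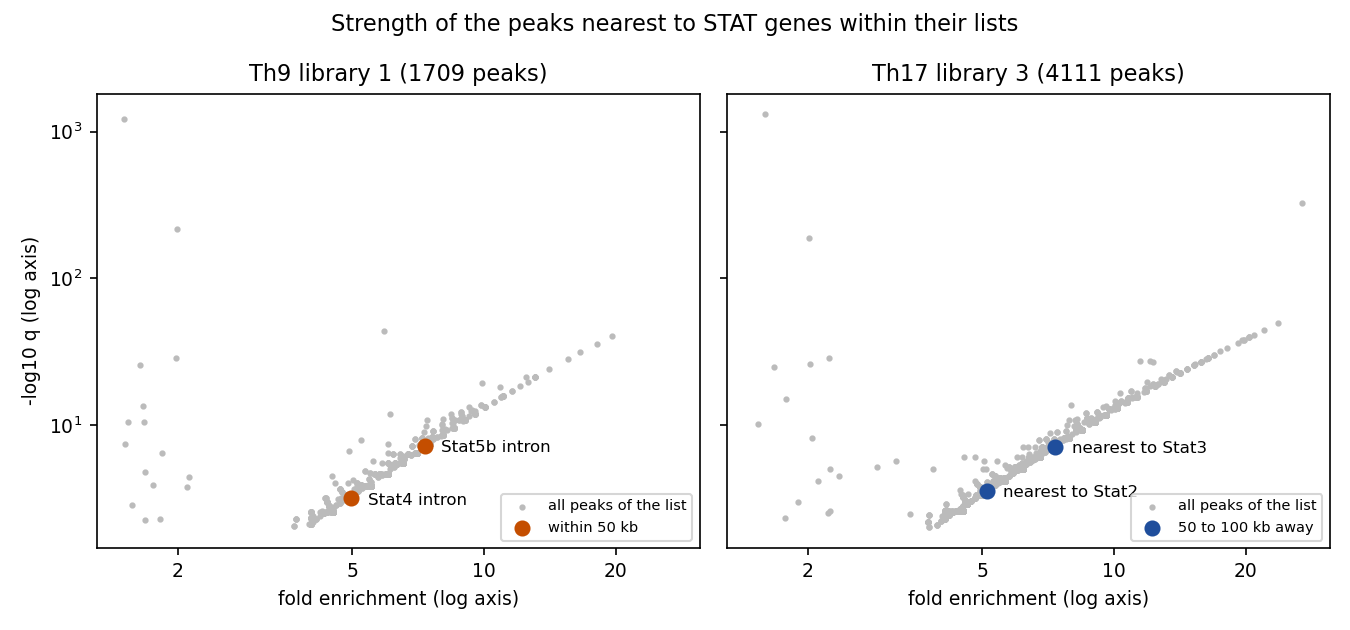
Fold enrichment (x axis, log scale) and −log10 q (y axis, log scale) of all peaks in Th9 library 1 and Th17 library 3, with the peaks within 100 kb of a STAT gene in colour. The *Stat5b* peak (7.32 and 7.21) and the peak nearest to *Stat3* (7.34 and 7.04) lie well above the weakest peaks, each in its own list, and the *Stat4* peak (4.98 and 3.15) and the peak nearest to *Stat2* (5.12 and 3.56) sit lower.

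Distances to the nearest summit followed the length of the lists. Over all genes, the median distance from the gene body was 494 kb and 3610 kb in Th9 libraries 1 and 2, and 181 kb and 5120 kb in Th17 libraries 3 and 4. In Th17 library 3 the 6 STAT genes ranged from 79.4 kb (*Stat2*) to 248 kb (*Stat4*), with *Stat3* at 80.2 kb, *Stat5a* at 135 kb, *Stat5b* at 169 kb and *Stat6* at 218 kb. These are on both sides of the median of that library, and between 29.1% and 59.6% of all genes were as near to a peak or nearer. In Th9 library 1, 2.90% of genes were at 0 kb, as *Stat4* and *Stat5b* were. That share is over genes of all lengths, with a median body of 13.5 kb. The bodies of *Stat4* and *Stat5b* span 120042 bp and 69851 bp, and a longer body is more likely to hold a summit. In the same library 86.5% and 88.1% of genes were as near to a peak as *Stat2* and *Stat6* or nearer. All 6 genes were beyond the median in Th17 library 4, and 5 of the 6, all but *Stat4*, in Th9 library 2.

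**Figure D3:**
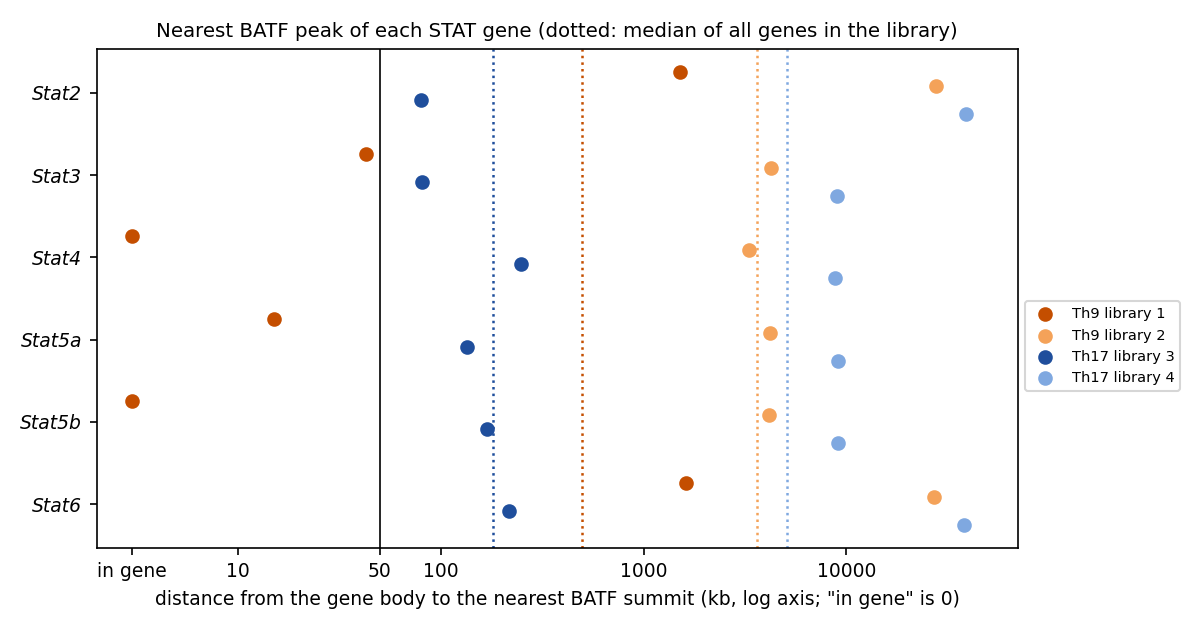
Distance from each STAT gene body to the nearest BATF summit (x axis, kb, log scale) for the 4 libraries (points), with the 50 kb limit as a black line and the median over all genes of each library as a dotted line. Points left of the black line are *Stat3*, *Stat4*, *Stat5a* and *Stat5b* in Th9 library 1.

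In Th9 library 1, 4 of the 6 STAT genes had a peak within 50 kb, against 9.17% of all genes. In Th9 library 2 it was 0 of 6, against 1.7% of all genes. In Th17 libraries 3 and 4 it was 0 of 6, against 21.4% and 1.23%. Over either library of a cell type the counts were 4 of 6 in Th9 (10.3% of all genes) and 0 of 6 in Th17 (21.8%). A peak in any library was seen at 4 of 6 against 28.4% of all genes, and a peak in Th9 with none in Th17 at 6.6% of all genes. The count of 4 rests on 2 peaks, and the genes are not independent of each other since 3 share a peak. They are also longer than most, with bodies of 39.3 kb at the median against 13.5 kb over all genes and 6 of 6 above that value, which widens the window searched.

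By windows in place of genes, the 6 genes form 4 separate loci of 719 kb in total. At the average density of each list over 2726 Mb, this length would hold 0.451 and 0.0636 peaks of Th9 libraries 1 and 2, and 1.08 and 0.0525 peaks of Th17 libraries 3 and 4. The numbers observed were 2, 0, 0 and 0. The 2 peaks were 0.117% of the list of Th9 library 1. For a count of 0, an approximate upper limit of the share was taken as 3 peaks over the length of the list. This limit was 1.24% in Th9 library 2, and 0.073% and 1.51% in Th17 libraries 3 and 4. The mean number of peaks near STAT genes was 1 ± 1.41 (SD, n = 2 libraries) in Th9 cells and 0 ± 0 (n = 2) in Th17 cells. A two-sided exact permutation test over libraries gave p = 1. With peaks in a single library, every split of the libraries gives a difference of the same size. This outcome was therefore fixed by the counts, and the test cannot decide whether the cell types differ. In any case 2 against 2 libraries cannot give a p below 0.33. Without Th9 library 1 the counts are 0 in both cell types.

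Nearly all matches to the motifs in the STAT loci were away from peaks. The 4 loci held 144 TGAGTCA sites, 1 per 4.99 kb against 1 per 6.29 kb over the genome, and only the site in *Stat5b* was within 100 bp of a summit. Over the genome 1238 of 433145 such sites were (0.286%). By gene, the windows held 22 TGAGTCA sites for *Stat2*, 29 for *Stat3*, 46 for *Stat4*, 25 for *Stat5a*, 25 for *Stat5b* and 34 for *Stat6*, with those of *Stat3*, *Stat5a* and *Stat5b* overlapping. *Stat6* thus had the densest AP-1 sites, 0.288 per kb, and no peak, and *Stat5b* the sparsest, 0.147 per kb.

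The same loci held 215 TTCNNNGAA matches, 1 per 3.35 kb against 1 per 2.54 kb over the genome, and again a single one, in *Stat5b*, was within 100 bp of a summit. Over the genome this held for 569 of 1072649 (0.053%). *Stat4* had the most, 86 in its window with 53 in its body, and its 0.391 per kb was close to the 0.394 per kb of the genome, while the other 5 windows held 0.23 to 0.295 per kb. *Stat6*, whose product itself binds such palindromes with a wider spacer, had 31 in its window and 0 in its body. Composite elements were few, with 11 matches of AICE1 and 16 of AICE2 in the 4 loci and 0 within 100 bp of a summit. Of the AICE2 matches, 9 lay in the *Stat4* body.

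In all 12 lists there were 0 summits within 2000 bp of the start sites of the 13 curated transcripts of these genes. Such a summit was found at 1.59% of all genes, so 0 of 6 does not set the STAT genes apart. The RefSeq promoter sequences, from 250 bases before to 50 after the start, were found for 6 of the 6 genes. None of them held TGAGTCA or TTCNNNGAA, which occur in 5.2% and 8.3% of 32851 promoters on GRCm38.p6. This says only that these spellings are not in these windows.

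Peaks near the other genes of the JAK-STAT pathway were counted in the same way. Of 40 listed genes, 6 (15.0%) had a peak within 50 kb in Th9 cells, against 10.3% of all genes, and 19 (47.5%) in Th17 cells, against 21.8% of all genes, with 15 in Th17 alone, 2 in Th9 alone, 4 in both and 19 in neither. Of the 4 JAK kinase genes, which encode the enzymes that phosphorylate STATs, 1 had a peak in Th9 and 3 in Th17. Of 20 genes for receptor chains that signal through STATs the counts were 2 and 11, and of 16 genes for negative regulators, such as the SOCS and PIAS proteins, they were 3 and 5. By library the 40 genes gave 5, 1, 19 and 2 for libraries 1 to 4, beside 4, 0, 0 and 0 of the STAT genes. Some of these genes are neighbours and share peaks, so the counts are descriptions, and the difference between the STAT genes and the other lists was not tested.

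**Figure D4:**
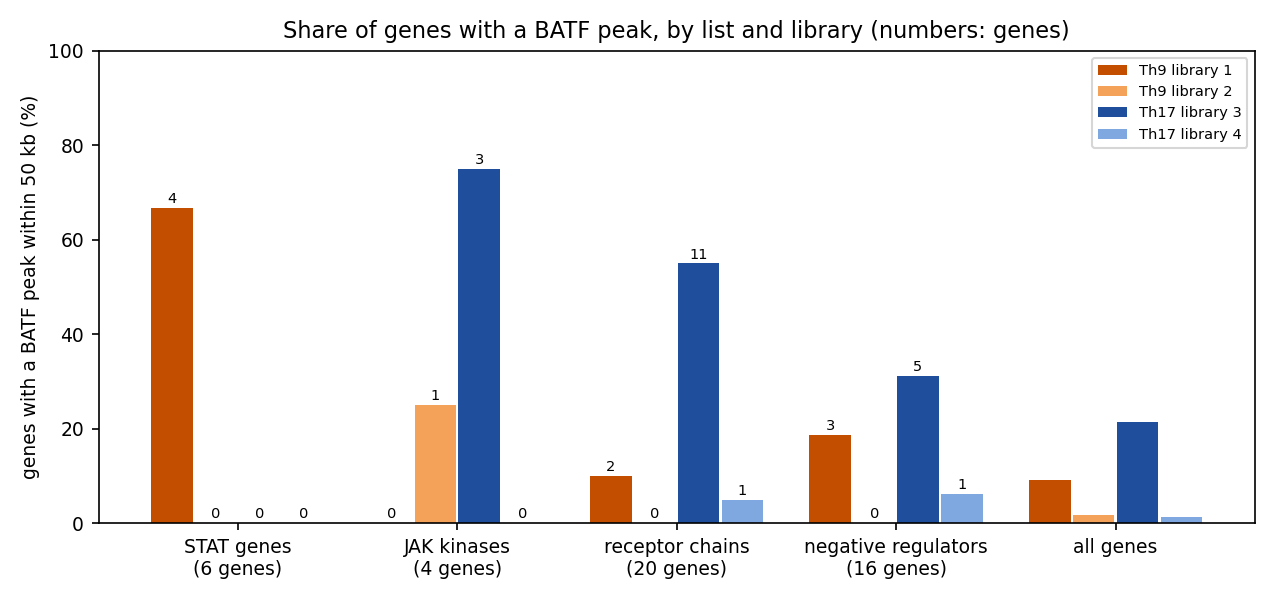
Share of genes with a BATF peak within 50 kb (y axis, percent) in the STAT genes, the other lists of the JAK-STAT pathway and all genes, by library, with the number of genes above the bars of the lists. The STAT genes have bars in Th9 library 1 alone (4 of 6), and in the 3 other lists the tallest bar is that of Th17 library 3.

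The library pattern of the 4 STAT genes with a peak, present in Th9 library 1 and absent from the other 3 libraries, was shared by 2 of the 40 genes, so that all 4 libraries matched. These were *Cish*, an inhibitor of STAT5 signalling that STAT5 itself induces, and *Il23r*, the receptor chain for IL-23. This pattern was seen at 5.87% of all genes, so 2 of 40 does not set the pathway genes apart. *Cish* and *Il23r* both had weaker peaks than *Stat5b*, and their sequences are given for comparison with it. TGAGTCA matches on either strand are in capitals.
Cish peak, chr9:107278664-107278955: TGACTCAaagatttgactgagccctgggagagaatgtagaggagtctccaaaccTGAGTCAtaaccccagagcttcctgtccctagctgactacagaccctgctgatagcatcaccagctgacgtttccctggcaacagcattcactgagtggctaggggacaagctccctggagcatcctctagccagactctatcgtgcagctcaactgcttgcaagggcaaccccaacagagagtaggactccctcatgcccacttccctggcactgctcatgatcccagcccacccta
Il23r peak, chr6:67514897-67515077: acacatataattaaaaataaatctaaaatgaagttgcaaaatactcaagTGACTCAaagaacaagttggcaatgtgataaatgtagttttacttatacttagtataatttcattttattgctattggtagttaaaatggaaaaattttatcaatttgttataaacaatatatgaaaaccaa

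The *Cish* peak lay 17959 bp upstream of its start site in an intron of the neighbouring *Mapkapk3*, enriched 5.36-fold (−log10 q 3.82). It held 2 AP-1 sites, with centres 33 bp before and 21 bp after the summit, and no STAT site within 100 bp. A composite AP-1:IRF element also lay within 100 bp of its summit, but not wholly inside the printed peak. The *Il23r* peak lay 23138 bp upstream of the gene between genes, enriched 5.03-fold (−log10 q 3.15), and held 1 AP-1 site 44 bp before the summit. The 40 pathway genes had 32 peaks, counted in each library, with a peak shared by neighbouring genes counted once. These are not 32 separate regions, since peaks of different libraries overlapped at *Jak2*, *Il2ra* and *Pias1*. Of the 32 peaks, 12 had an AP-1 site within 100 bp of the summit, including both of the overlapping *Il2ra* peaks. A composite element was found in 4, a STAT site in 3, and both an AP-1 and a STAT site in 0. The *Stat5b* peak was the single peak of the STAT and pathway genes with both of these.

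The 4 pathway genes with peaks in both cell types, named after their values were seen, were *Jak2*, *Il12rb2*, *Pias1* and *Ptpn2*. In *Jak2*, a kinase gene, peaks of Th9 library 2 and Th17 library 3 overlapped by 172 bp, with fold enrichments of 5.33 and 11.3 in their own lists, which are not on a common scale. In the other 3 the Th9 and Th17 peaks lay at different positions. No region near a STAT gene was called in both cell types or in both libraries of a cell type.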

How the data were processed

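The deposited files are MACS2 peak lists of 4 BATF ChIP-seq libraries, 2 from Th9 and 2 from Th17 cells. Reads were paired-end, and the authors used bowtie2 with mm10 and called peaks per library, without pooling, against IgG, input or both, with duplicates kept and a q threshold of 0.01. Per the labels, Trim Galore 0.4.3 and MACS2 2.1.0 were used. The control of a list was read from its name. For each peak the authors deposited a fold enrichment (a ratio to the local background), −log10 p and −log10 q values, a summit offset and a score derived from q. Fold enrichment and q were ranked within lists. Where values of several lists stand side by side, they are on no common scale. Depth is unknown from the lists, and their lengths, 199 to 4111 peaks, limit the precision. No per-sample column was left unmapped.

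The lists called against input and IgG were used. Gene bodies span the curated transcripts in release 108.20200622 of RefSeq, distances from the summit, and sites from GRCm38 on both strands within 100 bp of the summit. The looser AP-1 spelling includes TGAGTCA, and the composite elements AICE1 and AICE2 can overlap AP-1 matches. Peaks sharing 1 bp were merged into regions, and promoter sequences are from RefSeq. The members, the pathway lists and the tests were chosen with earlier results of these data known. Pathway genes were named where their pattern over the 4 libraries equalled that of the STAT genes with a peak, with exceptions stated. An item among the marker loci is not reported here. Peak numbers were compared by an exact permutation test over libraries. Calculations were tested on simulated data. Tools were matplotlib 3.10.9, pysam 0.24.0, scipy 1.17.1, pandas 2.3.3 and numpy 2.4.6 under Python 3.11.15.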

Additional observations from a re-analysis of the deposited data

How the results depend on the processing

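Of 110 values recalculated under 15 alternative settings, 0 reversed and 24 moved. The other 86 kept any direction they had and stayed within the spread between libraries or, for counts, within 1.5 times the value reported. Only the difference between Th17 and Th9 could reverse, since counts and shares cannot fall below 0. Many of the 86 are counts that were 0 at the main settings, so these totals say little about a result that rests on 2 peaks. The number of regions near STAT genes was 1 with IgG alone as control and 1 at a minimum −log10 q of 5, in place of 2, and in both settings the share of regions with an AP-1 site and the share with a STAT site became 100%, since the *Stat4* peak was lost. In both settings the difference in mean peak number between Th17 and Th9 was −0.5 in place of −1, and 3 STAT genes in place of 4 had a peak in Th9. With the 199 strongest peaks of every library there were 0 regions and 0 STAT genes with a peak in Th9, the difference between Th17 and Th9 was 0, and no shares could be computed. A window of 10 kb left 2 STAT genes with a peak in Th9. A window of 100 kb gave 2 STAT genes with a peak in Th17, 4 regions, a difference of 0, and shares of 25% for AP-1 and 25% for STAT sites. With TGANTCA the AP-1 share was 100%, and with a STAT palindrome of 1 more spacer base the STAT share was 0%. Leaving out each library in turn gave a difference in mean peak number between −2 and 0, 0 to 4 STAT genes with a peak in Th9, 0 in Th17, and 0 to 2 regions, with 0 in each case without Th9 library 1, and shares of 50% where regions remained. These are values with no test. Genes of GENCODE vM21 gave the same counts, 4 and 0. No paired analysis was possible because no number is shared between BATF libraries of the cell types compared. Depth cannot be read from the lists, and the short lists of Th9 library 2 and Th17 library 4 limit what an absent peak can show.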
